A study of Mus musculus with 8 samples.

Results

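Glycolysis splits glucose into pyruvate in the cytosol, and pyruvate is then either reduced to lactate or taken into mitochondria, where the pyruvate dehydrogenase complex turns it into acetyl-CoA. Several steps have paralogous enzymes that differ in kinetics and in tissue. In the brain, neurons take up glucose mainly through GLUT3 (Slc2a3), astrocytes and capillaries through GLUT1 (Slc2a1), and lactate crosses membranes through monocarboxylate transporters. The genes described here are 32 listed members of this pathway, covering glucose and lactate transporters, the glycolytic enzymes, lactate dehydrogenases, the enzymes that make and remove fructose bisphosphate signals, and the subunits and inhibitory kinases of pyruvate dehydrogenase. They were chosen by symbol, with the brightest probe set (over all 8 arrays) taken for each gene. Of the 32, 28 had a probe set of their own among 22180 measured genes. Aldoa shared its probe set with the testis retrogene Aldoart1, and no probe set was named here for Gpi1, Eno1 or Pfkfb1, so these 4 members are not analysed here.

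The study compared 4 cultures of C57BL/6J mouse hippocampal neurons kept in 55 mM KCl for 4 h with 4 untreated cultures. All 8 came from hippocampi of E18.5 embryos and were 11 days in vitro, in neurobasal medium that held AraC, which kills dividing cells, at the medium changes. Raised potassium depolarises neurons and lets calcium in. RNA was measured on Affymetrix whole-transcript arrays as log2 probe set values; the labels give every array a mouse number of its own and do not say whether embryos were pooled.

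As a check of the cells, 10 of 10 neuronal markers lay above the median gene of the array, as did 7 of 8 astrocyte markers, against 2 of 7 for the oligodendrocyte lineage, 1 of 8 for microglia, 1 of 6 for endothelial cells, 2 of 6 for fibroblasts and meninges and 5 of 7 for cycling progenitors. Astrocyte markers were thus detected beside neuronal ones, and in bulk RNA a change in cell numbers and a change in RNA per cell cannot be told apart. The mean log2 value of the 8 astrocyte markers ranged from 8.58 to 9.15 in KCl arrays and from 8.52 to 9.46 in untreated arrays, and that of the 10 neuronal markers from 9.63 to 10.24 in KCl arrays and from 9.53 to 10.18 in untreated arrays. The 7 cycling progenitor markers averaged 5.65, 6.10, 6.06 and 5.46 in KCl arrays 1 to 4, against 5.38, 5.73, 5.28 and 5.21 in untreated arrays 1 to 4, higher after KCl in every pair. Of the 7, 6 had a log2 change above 0 (median 0.51). None passed without the replicate block, where 1.34% of all genes rose. With it 1, Pax6, rose (limma adjusted p = 0.0461), 14.3% of the 7, against 2.43% of all genes. The part of these markers in the results below was not tested. Array medians were 4.44 to 4.48. The first principal component ran with the replicate number. The KCl and untreated arrays stood at -43.3 and -48.6 for number 1 and at -4.58 and -2.11 for number 2. Arrays numbered 3 and 4 stood at 20.6 to 26.6. Both groups lay apart on the second component, at 18.8 to 30.7 in KCl arrays and -30.2 to -21.4 in untreated arrays. As a check of the stimulus, 4 of 7 immediate-early genes, which activity induces in neurons, rose after KCl (57.1%, against 1.34% of all genes). These were Fos, Fosb, Junb and Nr4a1. The log2 change was above 0 for all 7, with a median of 4.02. With the replicate block 5 rose (71.4%, against 2.43% of all genes). The one added was Npas4 (limma adjusted p = 0.0324, against 0.0517 without the block).

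Most of the pathway showed no change that passed the test. After KCl, 2 of the 28 measured members rose, none fell and 26 did not pass (limma, adjusted p under 0.05 over all genes). The 2 were Hk2, the inducible hexokinase, and Pdk3, a kinase that switches pyruvate dehydrogenase off. They make up 7.14% of the members, where 1.34% of all genes rose and 1.02% fell, and a count of 2 leaves that share imprecise. Members were also chosen with earlier results of these data known, so the share does not test for an excess. At an unadjusted p under 0.05 there were 5 members (17.9%), 3 higher and 2 lower after KCl, against 13% of all genes. The arrays of both groups did not overlap for 3 members (10.7%), 2 higher and 1 lower after KCl, against 8.16% of all genes. The median log2 change was 0.02 over the 28 members and -0.01 over all genes, with 15 members above 0 and 13 below.

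**Figure D1:**
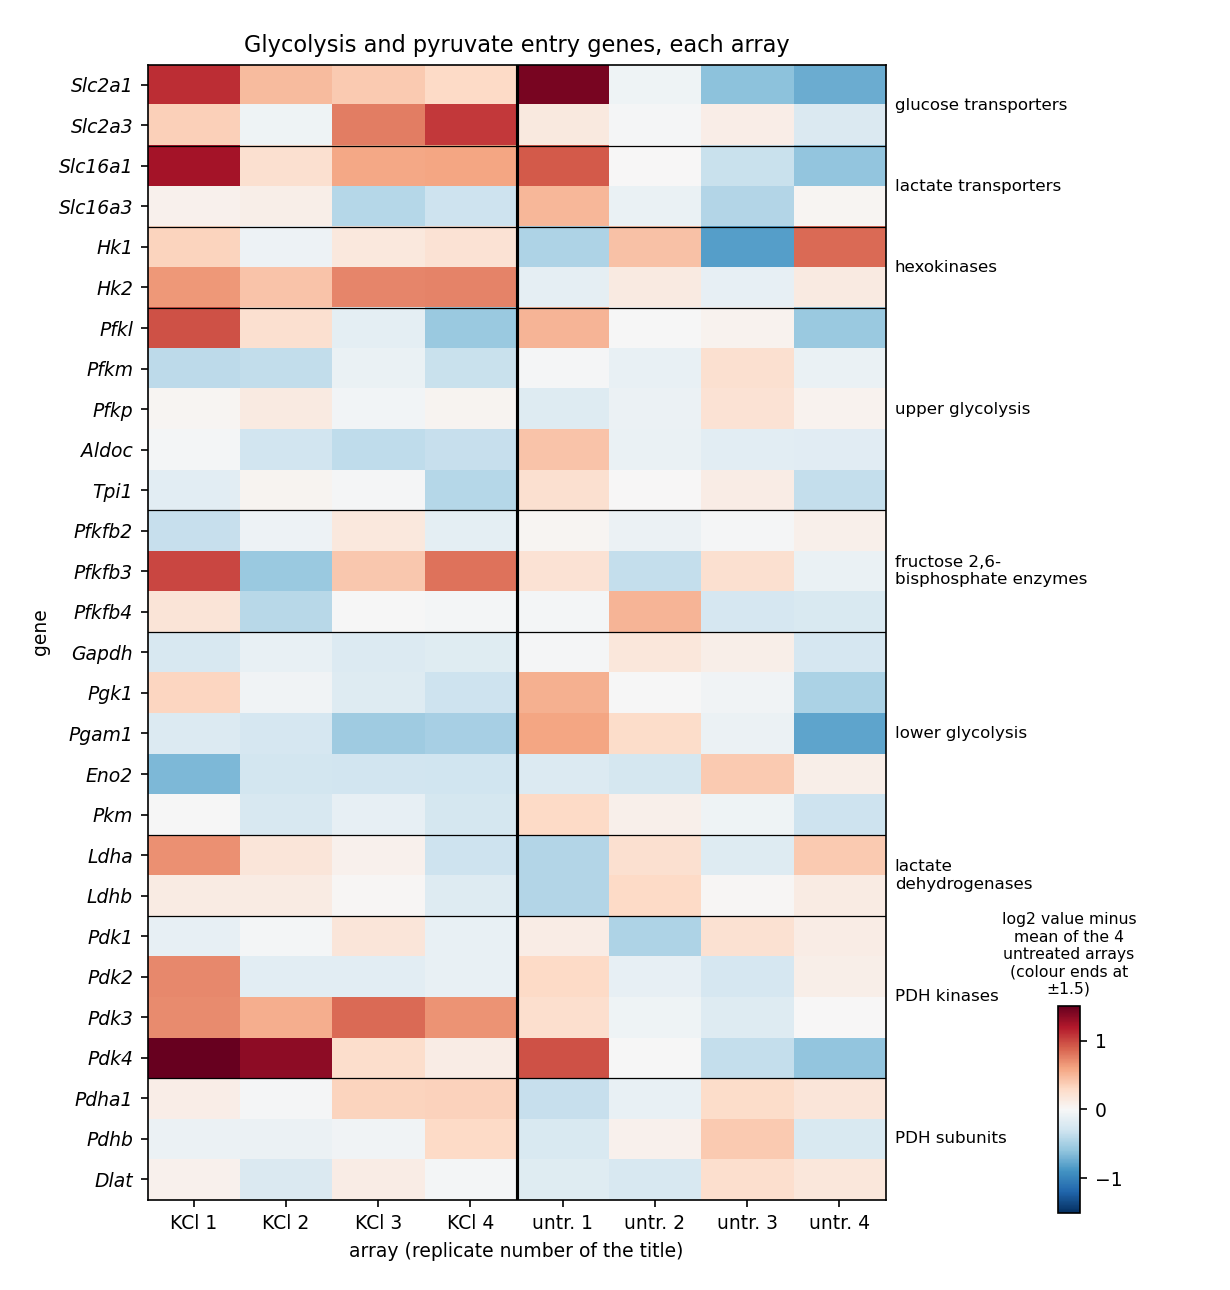
Each row is a measured gene, grouped by its step in the pathway, and each column an array, KCl left and untreated right; colour gives the log2 value minus the mean of the 4 untreated arrays. Hk2 and Pdk3 are red in all 4 KCl arrays, while for Slc2a1, Slc16a1 and Pdk4 the arrays numbered 1 are high in both groups.

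The promoters of the 2 genes that rose are shown because they lie at the start of the only members called without a replicate block. Both are the 250 bases before the annotated start, read 5′ to 3′ on the gene's own (minus) strand, from RefSeq on GRCm38.p6: chr6:82774455-82774704 for Hk2 and chrX:93832151-93832400 for Pdk3. Capitals mark the letters ACGTG, a form of the core of the hypoxia response element, and TGACG, the half-site of the cAMP response element, on either strand. The form GCGTG of that core was not searched for and is not marked.
Hk2: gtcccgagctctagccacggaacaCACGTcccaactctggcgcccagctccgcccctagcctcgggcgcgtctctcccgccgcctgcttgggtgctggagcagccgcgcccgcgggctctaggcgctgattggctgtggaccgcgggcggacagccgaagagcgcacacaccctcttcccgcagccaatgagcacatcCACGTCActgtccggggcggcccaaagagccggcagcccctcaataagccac
Pdk3: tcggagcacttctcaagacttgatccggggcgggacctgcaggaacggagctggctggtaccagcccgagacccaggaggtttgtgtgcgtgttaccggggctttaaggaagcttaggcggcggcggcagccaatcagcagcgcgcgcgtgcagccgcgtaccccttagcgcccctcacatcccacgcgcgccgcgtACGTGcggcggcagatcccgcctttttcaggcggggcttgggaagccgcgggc

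The Hk2 window held ACGTG at 226 and 52 bases before the start, the one at 52 overlapping a TGACG at 50, and the Pdk3 window held ACGTG at 53 bases before the start and no TGACG. Over the promoters of 27 measured members, ACGTG stood in 17 of 39 windows (43.6%), against 16.6% of 32851 windows of the same length, and TGACG in 10 of 39 (25.6%), against 17.8%. The whole palindromes were rarer: CACGTG, which contains ACGTG on both strands, stood in 15.4% of member windows and 6.02% of all windows, and TGACGTCA, which contains TGACG on both strands, in 2.56% and 1.55%. The member windows averaged 59.3% G and C, against 53.2% for all windows, and the part of base composition in these shares was not tested. Letters that match a motif are a description and do not show that a factor binds there. Members whose level did not pass the test carried ACGTG too, among them Ldha, Pgk1, Pkm and Slc2a1.

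Hexokinases trap glucose in the cell by phosphorylating it; Hk1 is the main form of the brain and Hk2 the form that many signals induce. Hk2 (probe set 17468018) stood at log2 values of 5.05, 4.83, 5.13 and 5.14 in KCl arrays 1 to 4, against 4.26, 4.53, 4.27 and 4.52 in untreated arrays 1 to 4. The lowest KCl array lay above the highest untreated one, so the groups did not overlap. Hk2 rose 1.56-fold (log2 change 0.64, SE 0.113, 95% interval 0.38 to 0.90, limma adjusted p = 0.0257) and was higher in 4 of 4 same-numbered pairs. Over all 8 arrays its probe set lay below the median gene of the array, where log2 values are compressed. It averaged 5.04 in KCl arrays and 4.39 in untreated arrays, against 4.76 for the median gene. Whether compression altered its fold was not tested, and signal over background was not assessed. Hk1 averaged 7.56 ± 0.17 in KCl arrays and 7.40 ± 0.78 in untreated arrays (SD, n = 4 each), with untreated values spread from 6.58 to 8.25. Its log2 change of 0.16 (95% interval -0.62 to 0.94) left both a rise as large as that of Hk2 and a fall within the interval.

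Pyruvate dehydrogenase kinases phosphorylate the E1 subunit and so hold back the entry of pyruvate into the citric acid cycle; the family has 4 members, all measured. Pdk3 (probe set 17543196) stood at 8.59, 8.42, 8.73 and 8.56 in KCl arrays 1 to 4, against 8.13, 7.82, 7.68 and 7.88 in untreated arrays 1 to 4. Here too every KCl array lay above every untreated one. Pdk3 rose 1.62-fold (log2 change 0.69, SE 0.118, 95% interval 0.43 to 0.96, limma adjusted p = 0.0231), again with 4 of 4 pairs higher.

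Pdk4, the form that fasting and fatty acids induce in muscle and liver, had the largest change of the 28 members and the widest spread. It stood at 7.41, 6.48, 5.40 and 5.24 in KCl arrays 1 to 4 and at 6.09, 5.13, 4.78 and 4.54 in untreated arrays 1 to 4. The groups overlapped, since KCl arrays 3 and 4 lay below untreated array 1, but within each number the KCl array was the higher one, by 0.62 to 1.35. The log2 change was 1.00 (SE 0.516, limma adjusted p = 0.496), and with the replicate number as a block the SE was 0.158 and Pdk4 passed (adjusted p = 0.024). Its log2 change was 0.57 without KCl array 1, and 0.89 without both arrays numbered 1, where it did not pass with the block (adjusted p = 0.0714). With the block, 3 members passed, all higher (10.7%, against 2.43% of all genes higher and 2.01% lower). Pdk1, a target of hypoxia signalling in many cells, averaged 6.21 ± 0.14 in KCl arrays and 6.23 ± 0.31 in untreated arrays (SD, n = 4 each, log2 change -0.02, 95% interval -0.38 to 0.34). Pdk2, the widely expressed form, averaged 7.11 ± 0.43 in KCl arrays and 7.04 ± 0.24 in untreated arrays (log2 change 0.07, 95% interval -0.43 to 0.57).

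Each of the calls of Hk2 and Pdk3 was kept in 2 of the 8 fits that leave out 1 array. In the other 6, the limma adjusted p of Hk2 was 0.0575 without KCl array 1, 0.0861 without KCl array 3, 0.0797 without KCl array 4, and 0.0537, 0.0524 and 0.0811 without untreated array 1, 2 or 3. That of Pdk3 was 0.0515, 0.0744 and 0.0685 without KCl array 1, 3 or 4, and 0.0713, 0.0655 and 0.0575 without untreated array 2, 3 or 4. The log2 changes in the 8 such fits were 0.60 to 0.71 for Hk2 and 0.63 to 0.78 for Pdk3. With trended and robust eBayes the adjusted p was 0.0502 for Hk2 and 0.0519 for Pdk3. Without both arrays numbered 1, Pdk3 passed (adjusted p = 0.0305, or 0.0567 with the block) and Hk2 did not (0.0888, or 0.116 with the block, log2 change 0.59).

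**Figure D2:**
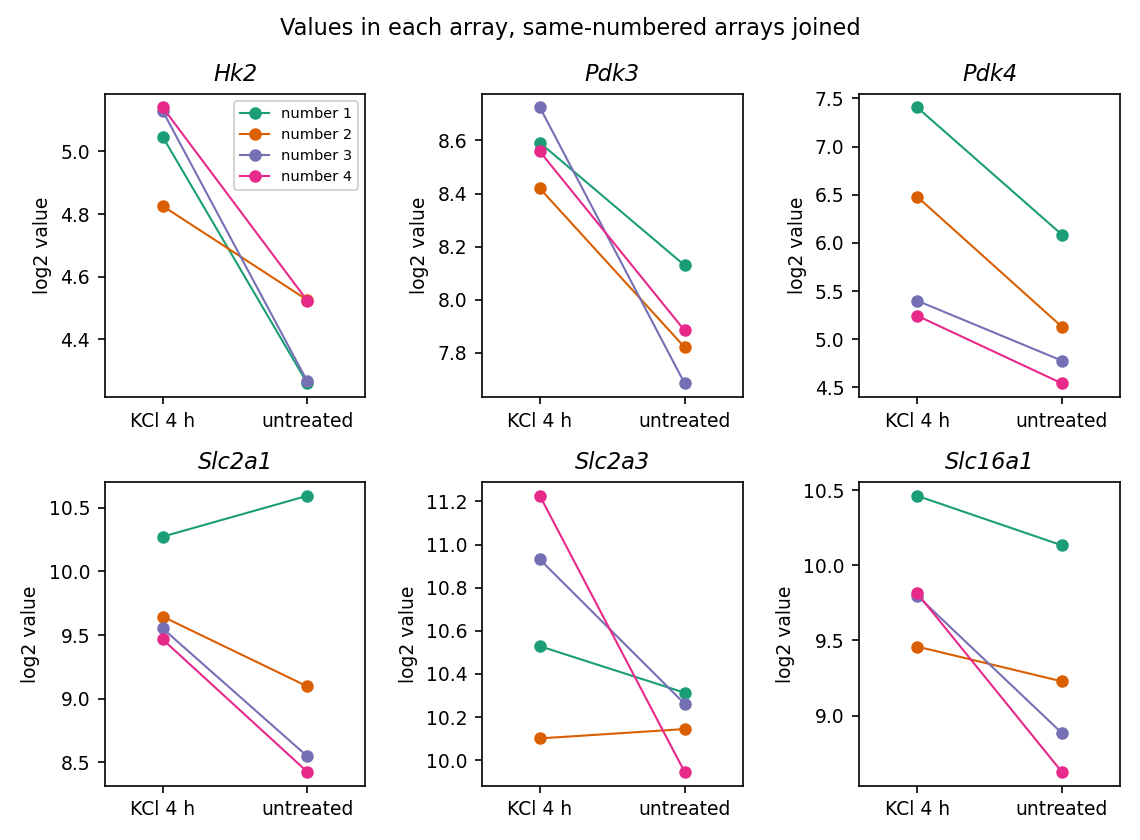
Log2 values of 6 genes in each array, KCl left and untreated right, with same-numbered arrays joined by a line; each panel has its own axis. The 4 KCl points of Hk2 and of Pdk3 lie above their 4 untreated points, while for Pdk4 and Slc2a1 the array numbered 1 is the highest of its group in both groups.

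The transporters that carry glucose and lactate across the membrane did not pass. Slc2a3, the neuronal glucose transporter, stood at 10.53, 10.10, 10.93 and 11.23 in KCl arrays 1 to 4, against 10.31, 10.14, 10.26 and 9.95 in untreated arrays 1 to 4. KCl array 2 lay among the untreated arrays and the other 3 lay above them (log2 change 0.53, SE 0.228, limma adjusted p = 0.371). Slc2a1, the glucose transporter of astrocytes and capillaries, stood at 10.27, 9.65, 9.55 and 9.47 in KCl arrays 1 to 4 and at 10.59, 9.10, 8.55 and 8.42 in untreated arrays 1 to 4. The untreated array numbered 1 was the highest of all 8, and in the other 3 pairs the KCl array was higher by 0.55 to 1.04. Its log2 change of 0.57 had an SE of 0.451 (adjusted p = 0.739). With both number 1 arrays left out, Slc2a1 had a log2 change of 0.87 (adjusted p = 0.0714, or 0.0497 with the replicate block as well), and without the untreated array numbered 1 alone it was the largest of the 8 such fits, 1.05 (adjusted p = 0.0764). A second Slc2a1 probe set, at 3.79 in KCl arrays and 3.81 in untreated arrays on average, had a log2 change of -0.02, and the mean of both probe sets 0.27. That second probe set lay below the lowest array median, 4.44, so it could hardly show a change.

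Slc16a1, the widely expressed lactate and pyruvate transporter MCT1, stood at 10.46, 9.46, 9.80 and 9.81 in KCl arrays 1 to 4, against 10.13, 9.23, 8.88 and 8.63 in untreated arrays 1 to 4. It was higher after KCl in 4 of 4 pairs, but untreated array 1 lay above KCl arrays 2, 3 and 4 (log2 change 0.67, SE 0.335, limma adjusted p = 0.477, 0.102 with the block). Slc16a3, the low-affinity exporter MCT4, averaged 4.26 ± 0.26 in KCl arrays and 4.41 ± 0.39 in untreated arrays (SD, n = 4 each, log2 change -0.14). Its probe set lay below the median gene of the array, where log2 values are compressed.

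The enzymes between hexokinase and lactate dehydrogenase held none that passed: of 10 measured from phosphofructokinase to pyruvate kinase, 2 had a log2 change above 0 and 8 below, from -0.38 to 0.12 (median -0.17). All 5 of lower glycolysis measured (Gapdh, Pgk1, Pgam1, Eno2 and Pkm) were below 0, also after repeated quantile normalization and after centring on array medians, but Pgk1 was above 0 without untreated array 1 (0.12) or KCl array 4 (0.03). Eno2, the neuronal enolase, stood at 8.37, 8.78, 8.76 and 8.75 in KCl arrays 1 to 4, against 8.84, 8.78, 9.44 and 9.13 in untreated arrays 1 to 4. Its groups did not overlap, though KCl array 2 and untreated array 2 are equal at the 2 decimals given, and it did not pass (log2 change -0.38, SE 0.167, unadjusted p = 0.0491, limma adjusted p = 0.38). Pgam1, phosphoglycerate mutase, had the widest untreated range of these, 9.96 to 11.34, against 10.21 to 10.54 in KCl arrays (log2 change -0.37, 95% interval -0.99 to 0.24).

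Gapdh, which oxidises glyceraldehyde phosphate, averaged 11.89 ± 0.05 in KCl arrays and 12.08 ± 0.18 in untreated arrays (SD, n = 4 each), a log2 change of -0.18 with a 95% interval of -0.43 to 0.06. Pkm, pyruvate kinase, had a log2 change of -0.16 and Pgk1, phosphoglycerate kinase, one of -0.06. These transcripts have many processed copies in the mouse genome, so signal of a copy could enter a probe set.

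In upper glycolysis, phosphofructokinase sets the pace of the pathway and forms tetramers of muscle, liver and platelet subunits. Pfkm stood at 8.83, 8.85, 9.13 and 8.89 in KCl arrays 1 to 4, against 9.20, 9.11, 9.46 and 9.12 in untreated arrays 1 to 4. It was lower after KCl in 4 of 4 pairs, by 0.23 to 0.37, and did not pass (log2 change -0.30, SE 0.114, unadjusted p = 0.03, limma adjusted p = 0.301). Pfkp averaged 10.68 ± 0.07 in KCl arrays and 10.64 ± 0.18 in untreated arrays (SD, n = 4 each, log2 change 0.04), and Pfkl differed by 0.12 with an SE of 0.334. The aldolase Aldoc, a marker of astrocytes in the adult brain, had a log2 change of -0.26 (4 of 4 pairs lower, adjusted p = 0.576) and the triose phosphate isomerase Tpi1 one of -0.14.

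The Pfkfb enzymes make and remove the activator of phosphofructokinase, and Pfkfb3, the form with the highest kinase activity, is kept low in neurons by constant degradation of its protein. Pfkfb3 stood at 7.80, 6.24, 7.20 and 7.61 in KCl arrays 1 to 4, against 7.02, 6.44, 7.04 and 6.70 in untreated arrays 1 to 4. KCl array 2 was the lowest of all 8 and the other 3 were the highest (log2 change 0.41, SE 0.324, limma adjusted p = 0.734). Pfkfb2 and Pfkfb4 had log2 changes of -0.11 and -0.06.

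Lactate dehydrogenase tetramers rich in the Ldha subunit favour lactate formation and those rich in Ldhb favour its use. Ldha stood at 6.22, 5.71, 5.59 and 5.22 in KCl arrays 1 to 4, against 5.08, 5.77, 5.34 and 5.92 in untreated arrays 1 to 4, and the groups overlapped throughout (log2 change 0.16, limma adjusted p = 0.913). Ldhb differed by 0.02 (95% interval -0.35 to 0.39). Among the subunits of pyruvate dehydrogenase itself, Pdha1, the E1 subunit that the kinases phosphorylate, stood at 10.05, 9.92, 10.28 and 10.29 in KCl arrays 1 to 4, against 9.59, 9.83, 10.21 and 10.13 in untreated arrays 1 to 4. It was higher after KCl in 4 of 4 pairs, by 0.06 to 0.45, but the groups overlapped (log2 change 0.19, adjusted p = 0.755). Pdhb and Dlat, the E2 subunit, had log2 changes of 0.02 and -0.02.

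**Figure D3:**
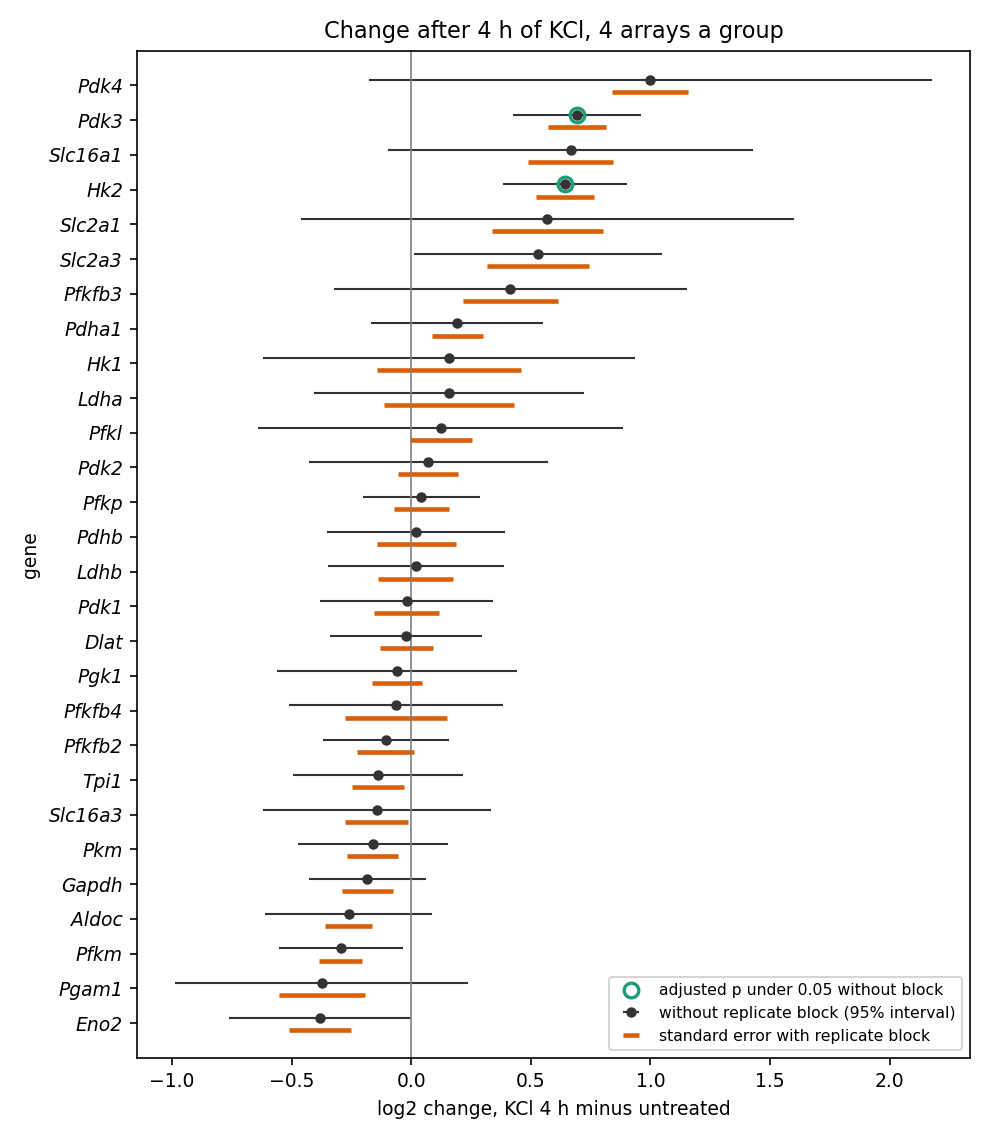
Log2 change of each of the 28 measured genes (points, KCl minus untreated) with its 95% interval without a replicate block (thin lines) and its standard error with the block (thick lines); rings mark an adjusted p under 0.05 without the block. Pdk4 has the largest change, 1.00, but an interval from -0.18 to 2.18, and the intervals of Hk2 and Pdk3 are clear of 0.

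How far a change can be bounded differed between members. The 95% interval lay within a log2 change of ±0.5 for 9 of 28 members and within ±1 for 23 (82.1%, against 87.3% of all genes). Slc2a1, Slc2a3, Slc16a1, Pfkfb3 and Pdk4 were the 5 whose interval reached further, and all 5 reached upward. For these 5 a rise of 2-fold lies within the interval, and these data do not show that they stayed level.

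Part of this spread ran with the replicate number. The array numbered 1 was the highest of its group in both groups for 9 of 28 members (32.1%), namely Pfkl, Aldoc, Pgk1, Pgam1, Pkm, Slc2a1, Slc16a1, Pdk2 and Pdk4, against 13.1% of all genes. The same held for 5 of 8 astrocyte markers (62.5%) and 1 of 10 neuronal markers. Aldh1l1, Slc1a3 and Slc1a2 were the astrocyte markers for which it did not hold. Aldh1l1 stood at 6.50, 7.19, 7.42 and 6.91 in KCl arrays 1 to 4 and at 7.40, 7.49, 7.39 and 6.15 in untreated arrays 1 to 4. Aqp4, the water channel of astrocyte endfeet, stood at 10.57, 9.96, 9.76 and 9.55 in KCl arrays 1 to 4 and at 10.77, 10.21, 9.81 and 9.55 in untreated arrays 1 to 4, and Gja1, the astrocyte connexin, at 10.18, 9.42, 9.12 and 8.97 in KCl arrays and at 10.38, 9.36, 8.55 and 8.79 in untreated arrays. Whether astrocyte RNA set the spread of these members was not tested. Of the 8 astrocyte markers, the glutamate transporter Slc1a2 fell to 0.583 of its untreated level (limma adjusted p = 0.0479, 0.062 with the block) and 7 did not pass. Those that fell were thus 12.5% of the 8, against 1.02% of all genes. With the replicate number as a block the standard error was smaller for 21 of the 28 members.

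Paralogs at one step were then set against each other, each array giving the difference of its 2 genes. Of 12 listed pairs, 10 were measured, and none passed an exact two-sided permutation test over 70 relabellings after adjustment over the 10 pairs (smallest adjusted p = 0.286). The smallest p that 4 against 4 arrays allow is 0.0286, and 6 pairs would have to reach it for the adjusted p to pass. None of the 10 was under 0.05 unadjusted. The 95% intervals given here come from an unpaired t formula with pooled variance, not from the permutation test. An interval can therefore exclude 0 where the exact p is over 0.05. Slc16a3 had a log2 change lower than that of Slc16a1 by 0.81 (difference -0.81, 95% interval -1.58 to -0.04, exact p = 0.0571), in 4 of 4 pairs. Slc16a3 lay below the median gene, where a change of its own could be hidden, so this difference may be that of Slc16a1 alone. Pdk3 exceeded Pdk2 by 0.62 (0.08 to 1.17, exact p = 0.0857) and Pdk4 exceeded Pdk2 by 0.93 (-0.17 to 2.02, exact p = 0.114), each in 4 of 4 pairs. Pfkp exceeded Pfkm by 0.34 (0.05 to 0.63, exact p = 0.0571), in 4 of 4 pairs. The difference of Hk2 and Hk1 was 0.48 (-0.30 to 1.27, exact p = 0.257) and positive in 2 of 4 pairs, so a different response of the 2 hexokinases was not shown although 1 of them passed the test and the other did not. Pfkl and Pfkm differed by 0.42 (-0.60 to 1.43), Pfkfb3 and Pfkfb2 by 0.52 (-0.52 to 1.56), and Ldha and Ldhb by 0.14 (-0.30 to 0.58). The difference of Slc2a1 and Slc2a3 was 0.04 (-1.37 to 1.45) and that of Pdk1 and Pdk2 was -0.09 (-0.86 to 0.68), intervals wide enough to hold a difference in either direction.

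**Figure D4:**
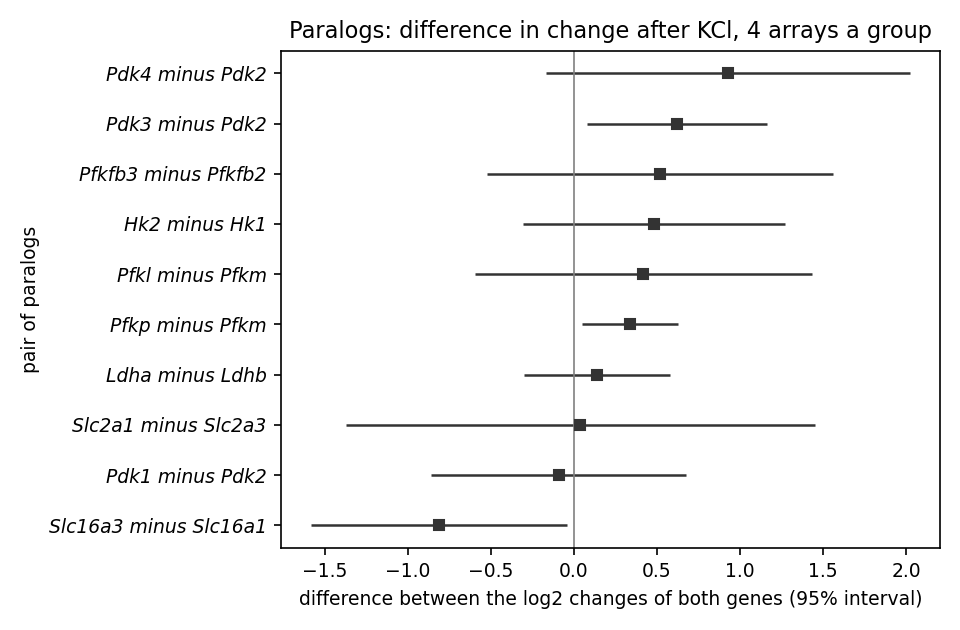
Difference between the log2 changes of 2 paralogous genes (points, first minus second) with its 95% interval, 4 arrays a group. The intervals come from an unpaired t formula, and no pair passed the permutation test. Slc16a3 minus Slc16a1 lies lowest at -0.81 and Pdk4 minus Pdk2 highest at 0.93.

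A wider list of 41 genes of the same pathway, of which 36 were measured (other paralogs, pyruvate carriers and phosphatases, pentose phosphate and glycerol phosphate enzymes), held none that passed over all genes, with 6 (16.7%) at an unadjusted limma p under 0.05, against 13% of all genes. The groups did not overlap for 4 of the 36 (11.1%), against 8.16% of all genes. The 3 of smallest p were all lower after KCl in every pair and did not overlap between groups. Pdpr, the regulatory subunit of the phosphatase that switches pyruvate dehydrogenase back on, averaged 6.62 ± 0.23 in KCl arrays and 7.25 ± 0.20 in untreated arrays (SD, n = 4 each, log2 change -0.62, adjusted p = 0.0748). Slc2a6, the hexose transporter GLUT6, averaged 6.01 ± 0.26 in KCl arrays and 6.69 ± 0.29 in untreated arrays (log2 change -0.68, adjusted p = 0.105). Tigar, which breaks down fructose bisphosphate signals, averaged 5.05 ± 0.15 in KCl arrays and 6.02 ± 0.57 in untreated arrays (log2 change -0.97, adjusted p = 0.114). With the replicate block, Pdpr (adjusted p = 0.0421) and Slc2a6 (0.0372) passed, 5.56% of the 36, against 2.01% of all genes lower, and Tigar did not (0.0715).

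Of 27 measured regulators of glycolysis and energy use, 1 rose (3.70%, against 1.34% of all genes) and 2 fell (7.41%, against 1.02%). The list was chosen with earlier results of these data known, so these shares do not test for an excess. Mlxip, which encodes the glucose-sensing transcription factor MondoA, rose 1.75-fold and stood at 7.82, 7.64, 7.53 and 7.49 in KCl arrays 1 to 4, against 6.81, 7.13, 6.54 and 6.77 in untreated arrays 1 to 4 (limma adjusted p = 0.0238). Arrdc4, an arrestin-like inhibitor of glucose uptake and a known MondoA target, fell to 0.469 of its untreated level, with 7.48, 7.90, 7.22 and 7.73 in KCl arrays 1 to 4, against 8.64, 8.49, 9.07 and 8.50 in untreated arrays 1 to 4 (adjusted p = 0.0227). The related Txnip also fell (log2 change -3.40, adjusted p = 0.0248). Hif1a, the oxygen-regulated factor that drives many glycolytic genes mainly through the stability of its protein, had a log2 change of 0.08 (adjusted p = 0.931).

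Of 17 measured hypoxia-response genes outside glycolysis, 2 rose (11.8%, against 1.34% of all genes), none fell and 15 did not pass. The log2 change was above 0 for 9 of the 17 and below 0 for 8, from -0.42 to 1.48, with a median of 0.13. With the block 4 rose (23.5%, against 2.43%). This list too was chosen with earlier results of these data known, so its shares do not test for an excess. Kdm3a, a histone demethylase, rose 2.32-fold and stood at 9.61, 9.15, 9.23 and 9.09 in KCl arrays 1 to 4, against 7.99, 7.99, 8.11 and 8.15 in untreated arrays 1 to 4 (limma adjusted p = 0.0034), and passed with any single array left out. Mxi1, a MAX-binding repressor, had a log2 change of 1.48 and rose (adjusted p = 0.0485; 0.067 and a log2 change of 0.90 with the mean of its 2 probe sets), and Vegfa, the vascular growth factor, had a log2 change of 0.84 (adjusted p = 0.123, 0.039 with the block). Each of the other calls in these 2 lists was lost without some single arrays. Mlxip passed without untreated array 1 or 2 and had adjusted p up to 0.0669 in the other 6 such fits. Arrdc4 passed without KCl array 2 or untreated array 1 or 4 (up to 0.0619 otherwise), Txnip without KCl array 1 or untreated array 1 or 4 (up to 0.0818 otherwise), and Mxi1 without untreated array 1 or 3 (up to 0.14 otherwise). Vegfa passed without untreated array 3 (adjusted p = 0.0421).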

How the data were processed

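RNA of 8 cultures was measured on 8 Affymetrix arrays, 4 a group, grouped by the sample titles. The authors deposited 1 log2 value per probe set and array; per the submitters' processing notes RMA and Partek were used, and no version or setting is given there. RMA sets each array relative to those run with it, and small signals show smaller differences. Scanner files were not used here.

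Of 34472 probe sets, 23521 had 1 gene symbol in the platform annotation, 1814 several and 9137 none here. The brightest probe set stood for each of 22180 genes. Differences between groups were tested in R 4.3.3 with limma 3.58.1 (lmFit and eBayes, two-sided, Benjamini-Hochberg over all genes, threshold 0.05), and the fit was tested on simulated data. Those data had independent noise in each array and seeded changes larger than those of Hk2 and Pdk3. They do not show how the fit handles changes of that size or a likeness of same-numbered arrays. The limma p-values set the difference of the group means against the spread between arrays within a group. With the block they set it against the spread left after the replicate number is fitted. Members, lists and tests were chosen with earlier results of these data known. All members are accounted for; per-array values are given for members past an adjusted or unadjusted 0.05, for the smallest p of each role, and for Pdk4 and Slc2a1, chosen after their values were seen. Of the other lists, members past the threshold and up to 3 of smallest p are named. Hif1a, Aqp4, Gja1, Aldh1l1, Slc1a3, Pax6 and Npas4 were chosen after their values were seen.

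Both groups carry the replicate numbers 1 to 4. Deviations from the group means correlated across genes at 0.638, 0.234, 0.409 and 0.368 in the same-numbered pairs, all over 0.1, so same-numbered arrays were treated as pairs and the replicate block was fitted as well. The highest correlation with an array of another number was -0.0062 for numbers 1 and 2 and 0.302 for numbers 3 and 4. The pairing was thus inferred from these same data, and numbers 3 and 4 were also alike across numbers. The labels tie the numbers to no litter or day. No 2 arrays were identical. All 28 measured members matched RefSeq symbols (GRCm38.p6), and 27 had a promoter there. Python 3.11.15 and matplotlib 3.10.9 drew the figures.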

Additional observations from a re-analysis of the deposited data

Results flagged for a closer look

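In 4 of 56 groups of 4 arrays tested over the members, 1 array lay far from the other 3, where chance alone gives about 1 in 20. Aldoc stood at 10.85 in untreated array 1, against 10.26 to 10.32 in the other untreated arrays. Eno2 stood at 8.37 in KCl array 1, against 8.75 to 8.78 in the other KCl arrays. Pdk2 stood at 7.76 in KCl array 1, against 6.88 to 6.93 in the other KCl arrays. Pdhb stood at 9.89 in KCl array 4, against 9.50 to 9.54 in the other KCl arrays. Of these arrays, 3 are numbered 1.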

How the results depend on the processing

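The count of 2 members that passed was 2 or 3 with repeated quantile normalization, centring on array medians, probe sets averaged per gene, array weights or the replicate block. It was 1 among genes brighter than the median gene, which left Hk2 out of the test, and 0 with trended and robust eBayes. It was 0 to 2 with single arrays left out, and 1 without both arrays numbered 1, with the block (Slc2a1) or without it (Pdk3); these 2 fits were chosen after seeing the data. Of the 26 members that did not pass, 24 did so in none of the 17 alternatives, the exceptions being Pdk4 with the replicate block and Slc2a1 without both arrays numbered 1 and with the block. The sign changed in at least 1 alternative for 12 of them, with log2 changes of up to 0.159 in size. Of the other pathway genes, 0 passed in the main test, 2 with the replicate block, 1 without both arrays numbered 1 and with the block, and 0 to 1 with single arrays left out. Of the regulators and hypoxia-response genes together, 5 passed, 1 to 5 with single arrays left out and 4 to 7 in the other alternatives. The count of paralog pairs was 0 in all its alternatives, but the sign-flip test of the replicate block cannot pass (smallest p 0.125). The replicate block changed no call of a gene named in the report beyond those given there. Signal over background was not assessed.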

Other observations

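Gapdh, a common reference transcript for normalizing PCR, had 3 probe sets with its symbol alone. The first 2 held identical values on 5 of the 8 arrays, at means of 11.89 and 11.86 in KCl arrays and 12.08 and 11.99 in untreated arrays, so they are not independent measurements. Their log2 changes were -0.18 and -0.13, and that of the third, which averaged 8.91 in KCl arrays and 8.96 in untreated arrays, was -0.04.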
